A study of Mus musculus with 18 samples.

Results

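The 10 genes described here belong to the integrated stress response: Ddit3, which encodes the transcription factor CHOP, Atf3, Atf4, Atf5, Asns, Trib3, Chac1, Sesn2, Ppp1r15a and Ddit4. They were chosen by symbol, as genes of this pathway and with earlier results of these data known, and each was represented by 1 probe set, so that 10 of the 22180 genes measured were members. The line studied, NaF, derives from a mouse mammary carcinoma, and 18 Affymetrix arrays in 6 groups of 3 measured its expression. Cells of 4 groups spent 48 hours in DMEM with 10% charcoal-treated FBS, a serum depleted of small lipophilic molecules, and were then left without ligand (charcoal control) or exposed for 6 hours to 1 µM GW1516, TTNPB or all-trans retinoic acid. Cells of the other two groups stayed in DMEM with 10% FBS and received palmitate at 10 µM for 6 hours or nothing (full-medium control). The titles of the control arrays name no vehicle and no hours, so an effect of vehicle or handling was not tested. Retinoic acid and TTNPB, a synthetic retinoid, activate the retinoic acid receptors, GW1516 activates PPARδ, and palmitate is a saturated fatty acid. All groups are the same line and no genotype differs among them. The labels do not say whether the 3 arrays of a group came from separate cultures. The p-values therefore measure the spread between arrays within groups, pooled over all 6 groups.

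The integrated stress response begins when a kinase (PERK for unfolded protein in the endoplasmic reticulum, GCN2 for missing amino acids, HRI for heme shortage and mitochondrial signals, PKR for double-stranded RNA) phosphorylates the initiation factor eIF2. Most translation then falls, while the mRNAs of Atf4 and Atf5 are translated more. ATF4, with C/EBP partners, raises genes of amino acid uptake and synthesis and the genes of further transcription factors, CHOP and ATF3 among them. Because ATF4 is regulated to a large extent by translation, an array, which measures mRNA, does not show its protein level. Ddit4 and Sesn2 restrain the growth kinase mTORC1, Trib3 restrains ATF4 and CHOP, Chac1 degrades glutathione, and Ppp1r15a (GADD34) brings a phosphatase to eIF2 and so closes the loop.

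Many of these genes are known to answer to ATF4 through a composite C/EBP-ATF element, and a match to its core was looked for in the RefSeq promoters (build GRCm38.p6, 250 bases before to 50 bases after the start, 11 promoters for the 10 members since Atf5 has 2). The core was searched as TGATGNAA on both strands and was found in 3.97% of all 32851 promoters. It was found in 4 of the 11 member promoters: Atf3 (TTGCATCA, from base -110 to -103), Asns (TGATGAAA, -23 to -16), Chac1 (TTGCATCA, -193 to -186) and Trib3, whose match (TTACATCA, 14 to 21) lay inside the transcript. The promoters of Ddit3, Atf3, Asns and Chac1 are shown because Ddit3, Atf3 and Asns carried the changes described below while Chac1, with the same core as Atf3, had values in the opposite direction. The 250 bases before the start are written from 5′ to 3′ on the strand of the gene. Capitals mark the element core in Atf3, Asns and Chac1, the cAMP response element with 1 base less (TGACGCA, in 2.12% of all promoters) at the first bases of Chac1, and an AP-1 site (searched as TGANTCA, in 7.81% of all promoters) in Ddit3.
Ddit3, chr10:127290543-127290792, plus strand: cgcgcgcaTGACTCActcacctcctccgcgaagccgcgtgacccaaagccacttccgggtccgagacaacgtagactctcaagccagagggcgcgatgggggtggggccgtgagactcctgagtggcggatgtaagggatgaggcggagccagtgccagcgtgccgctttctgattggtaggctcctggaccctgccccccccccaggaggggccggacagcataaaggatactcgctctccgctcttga
Atf3, chr1:191183334-191183583, minus strand: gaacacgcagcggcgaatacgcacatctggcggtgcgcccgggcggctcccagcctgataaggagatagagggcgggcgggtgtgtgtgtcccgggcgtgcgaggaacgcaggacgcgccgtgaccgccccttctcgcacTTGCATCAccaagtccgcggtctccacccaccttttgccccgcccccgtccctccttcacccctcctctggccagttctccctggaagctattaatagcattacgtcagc
Asns, chr6:7693210-7693459, minus strand: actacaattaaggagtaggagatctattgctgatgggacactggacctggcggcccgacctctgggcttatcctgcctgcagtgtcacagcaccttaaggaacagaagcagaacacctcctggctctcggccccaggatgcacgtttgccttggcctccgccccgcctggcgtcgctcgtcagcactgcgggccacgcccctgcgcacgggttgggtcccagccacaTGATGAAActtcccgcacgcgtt
Chac1, chr2:119350992-119351241, plus strand: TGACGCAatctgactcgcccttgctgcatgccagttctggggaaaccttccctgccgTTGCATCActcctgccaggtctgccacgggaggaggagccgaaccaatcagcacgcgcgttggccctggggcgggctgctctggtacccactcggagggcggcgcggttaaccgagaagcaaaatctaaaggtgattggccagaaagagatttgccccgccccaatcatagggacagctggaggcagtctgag
The full cAMP response element, TGACGTCA, was found in 1.79% of all promoters and in 1 of the member promoters, Ppp1r15a (-12 to -5). The CCAAT box (CCAAT on either strand) was found in 37.4% of all promoters and in 7 of the 11. The ER stress response element, which contains a CCAAT box, was found in 0.119% of all promoters and in 0 of the 11. The direct repeats known to bind retinoic acid receptors (with 5 bases between) and PPARs (with 1 base between) were found in 0.862% and 1.25% of all promoters, and in 0 of the 11 members. These are matches of letters in a short window, and no binding was measured.

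Values are log2 expression values as deposited. The full-medium arrays had lower values throughout the table, for a reason not given in the sources used here. Values are therefore compared only within charcoal-treated serum or within full medium. Between the sera only effects, each taken against the same-serum control, are compared. Changes were tested with limma over all 22180 genes, with Benjamini-Hochberg adjustment and a threshold of 0.05, and each is given as a log2 difference with its standard error. As a background level, the 95th percentile of olfactory and vomeronasal receptor genes was taken in each group (1.15 to 1.31 in charcoal-treated serum, 0.59 and 0.63 in full medium), and this measure was defined with the data in view. Of the 10 members, 9 were above it in every group. Atf5 was above it in charcoal-treated serum, just above it in the full-medium control (0.65) and below it with palmitate (0.61), so its values in full medium carry little information. Of 8 luminal epithelial markers, 6 or 7 were above background in every group. Krt8, Krt18, Cdh1, Cldn3 and Cldn4 were so throughout, Epcam only in charcoal-treated serum, and Cldn7 in no group. Krt19 was not above it in the charcoal control or with GW1516. Of the other markers, 0 to 2 of 5 basal, 0 or 1 of 4 adipocyte, 1 to 4 of 7 fibroblast and 1 or 2 of 6 leukocyte markers were above it. Of 5 endothelial markers only Cdh5 was above background. Yet the mean of these 5 was 2.41 to 2.67 on the arrays in charcoal-treated serum, against 3.46 to 3.71 for the luminal markers. GW1516 replicate 3 stood apart, at a mean distance of 0.231 from its group mean against 0.0816 to 0.145 for the other arrays, with its receptor genes at a median of 0.995 against 0.715 and 0.677 on the other GW1516 arrays. The 3 ligand comparisons share the same 3 control arrays and are not independent of each other.

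Retinoic acid raised 3 of the 10 members, Ddit3, Atf3 and Asns, and lowered none that passed the test. Over all genes 5.29% were called, 3.82% as higher. These shares include dim genes, here those with a mean under 0.92. Without them 12346 genes were left, of which 1492 were called with retinoic acid. With TTNPB 454 of the same 12346 were called, with GW1516 872 and with palmitate 228. The other 7 members did not pass, and 4 of these, Atf5, Chac1, Sesn2 and Ddit4, had all 3 retinoic acid arrays below all 3 control arrays. With the 3 called genes that made 7 of 10 members whose arrays did not overlap, against 24.1% of all genes. The median change of the members was -0.09 and that of all genes -0.03. The 3 calls were kept in all 16 other settings tried for this comparison, with adjusted p-values no higher than 0.00317 for Ddit3, 0.00699 for Atf3 and 0.0453 for Asns.

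With TTNPB, matched in dose and time, there was 1 call: it raised 1 of the 10 members, Ddit3, against 1.26% of all genes called (0.618% higher). GW1516 also raised 1 of 10, again Ddit3, against 2.57% of all genes called (1.89% higher). Arrays did not overlap the controls for 6 of 10 members with TTNPB (17.9% of all genes) and for 2 of 10 with GW1516 (16.3% of all genes). The median change of the members was -0.08 with TTNPB and 0.06 with GW1516, against -0.00 and -0.01 for all genes. Palmitate changed 0 of the 10 past the limma threshold, against 0.681% of all genes called, and 3 members had an unadjusted p below 0.05, Trib3, Ppp1r15a and Atf4, as did 7.0% of all genes. Its median change was 0.14 over the members and -0.00 over all genes.

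**Figure D1:**
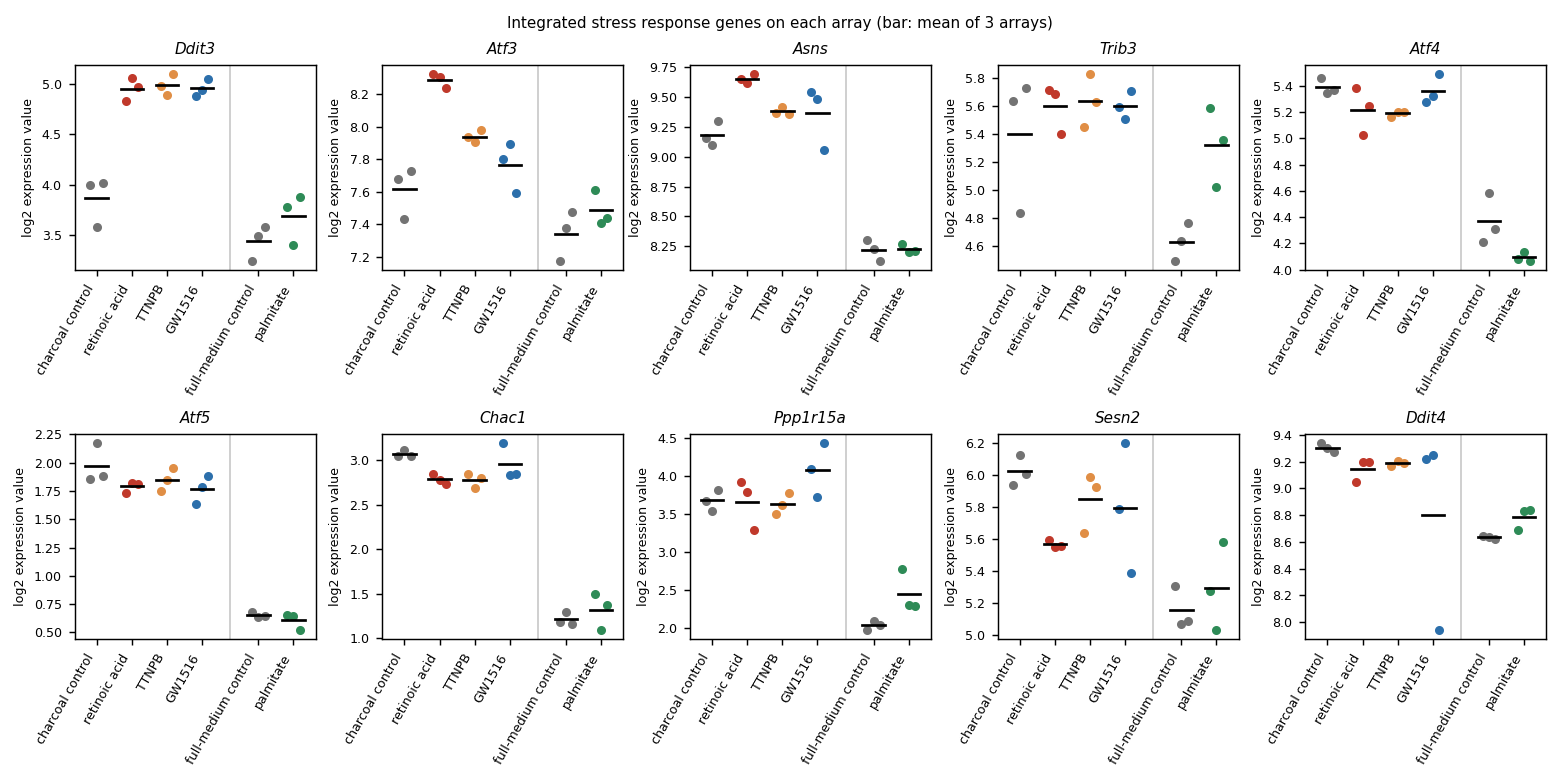
Log2 expression values (vertical axis) of the 10 members on each of the 18 arrays, by group (horizontal axis); each point is 1 array, each bar the mean of 3, and the grey line separates the arrays in charcoal-treated serum (left) from those in full medium (right), whose values were lower throughout the table. All 9 ligand arrays of Ddit3 lie above its 3 charcoal controls, while for Atf3 the retinoic acid arrays (8.24 to 8.32) lie above every other array.

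Ddit3 encodes CHOP, the factor through which a prolonged stress response favours cell death. In the charcoal controls it measured 3.99, 3.58 and 4.02. With retinoic acid it measured 4.83, 5.05 and 4.96, with TTNPB 4.97, 4.89 and 5.09, and with GW1516 4.88, 4.94 and 5.05. Every ligand array was thus above every control, by at least 0.81, the gap between the highest control and the lowest retinoic acid array. The log2 change was 1.08 ± 0.15 with retinoic acid (2.12-fold, limma adjusted p = 0.000257), 1.12 ± 0.15 with TTNPB (2.18-fold, adjusted p = 0.000677) and 1.09 ± 0.15 with GW1516 (2.13-fold, adjusted p = 0.000984). The ligand groups overlapped fully, and their direct differences were near 0: -0.04 between retinoic acid and TTNPB (95% interval -0.35 to 0.28), -0.01 between retinoic acid and GW1516 (-0.32 to 0.31) and 0.03 between TTNPB and GW1516 (-0.29 to 0.35). The call with GW1516 was lost when only its 6 arrays were fitted (adjusted p = 0.197).

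In full medium Ddit3 measured 3.24, 3.49 and 3.58 in the controls and 3.78, 3.40 and 3.88 with palmitate, and the groups overlapped. The log2 change was 0.25 ± 0.15 (adjusted p = 0.918). Set against the retinoic acid effect, the palmitate effect was lower by 0.83 on the log2 scale (difference -0.83 ± 0.21, adjusted p = 0.0423), with 2.56% of all genes called in this contrast, 2.07% as lower. That call was lost without any 1 of 9 of the 12 arrays in it, charcoal control replicates 1 and 2, each retinoic acid array, full-medium control replicates 2 and 3 and palmitate replicates 1 and 2 (adjusted p between 0.0524 and 0.122). It was also lost when arrays were centred on their medians (adjusted p = 0.0859) and after quantile normalization within each serum (difference -0.63, adjusted p = 0.0678). The difference was -0.87 ± 0.21 against TTNPB (adjusted p = 0.0776) and -0.84 ± 0.21 against GW1516 (adjusted p = 0.0612).

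Atf3 encodes a bZIP factor of the same network, which can repress stress genes including Ddit3. It measured 7.68, 7.43 and 7.73 in the charcoal controls, 8.32, 8.31 and 8.24 with retinoic acid, 7.94, 7.91 and 7.98 with TTNPB and 7.81, 7.90 and 7.59 with GW1516. The retinoic acid arrays were the highest, the TTNPB arrays came next and still cleared the controls, and the GW1516 arrays overlapped the controls. The log2 change was 0.68 ± 0.10 with retinoic acid (1.60-fold, adjusted p = 0.000562), 0.33 ± 0.10 with TTNPB (adjusted p = 0.156) and 0.15 ± 0.10 with GW1516 (adjusted p = 0.521). Directly compared, retinoic acid exceeded GW1516 by 0.53 ± 0.10 (1.44-fold, adjusted p = 0.0280), where 0.352% of all genes were called and 0.284% as higher. This call was lost without any 1 of the 3 retinoic acid arrays (adjusted p from 0.0780 to 0.139) and when arrays were centred on their medians (adjusted p = 0.203). Between retinoic acid and TTNPB, the pair of receptor agonists, Atf3 differed by 0.35 ± 0.10 (interval 0.14 to 0.57, adjusted p = 0.300), a difference whose own interval lies above 0 but which did not pass over all genes.

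With palmitate Atf3 measured 7.61, 7.41 and 7.44 against 7.17, 7.38 and 7.47, and the groups overlapped (log2 change 0.15 ± 0.10, adjusted p = 1). The palmitate effect minus the retinoic acid effect was -0.53 ± 0.14 (adjusted p = 0.0600).

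Asns, asparagine synthetase, is among the best known targets of ATF4. The charcoal controls measured 9.16, 9.10 and 9.30, the retinoic acid arrays 9.65, 9.62 and 9.69, the TTNPB arrays 9.37, 9.41 and 9.36, and the GW1516 arrays 9.55, 9.49 and 9.06. Retinoic acid and TTNPB arrays lay above all controls, whereas GW1516 replicate 3 lay below them. The log2 change was 0.47 ± 0.10 with retinoic acid (1.38-fold, adjusted p = 0.00708), 0.20 ± 0.10 with TTNPB (adjusted p = 0.474) and 0.18 ± 0.10 with GW1516 (adjusted p = 0.404). Without GW1516 replicate 3 the change with GW1516 was 0.33 and passed (adjusted p = 0.00471). The direct difference was 0.27 ± 0.10 between retinoic acid and TTNPB (interval 0.07 to 0.47, adjusted p = 0.485) and 0.29 ± 0.10 between retinoic acid and GW1516 (interval 0.09 to 0.49, adjusted p = 0.337). With palmitate Asns measured 8.27, 8.20 and 8.21 against 8.31, 8.22 and 8.13 in the controls, a change of 0.01 with an interval from -0.19 to 0.21.

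**Figure D2:**
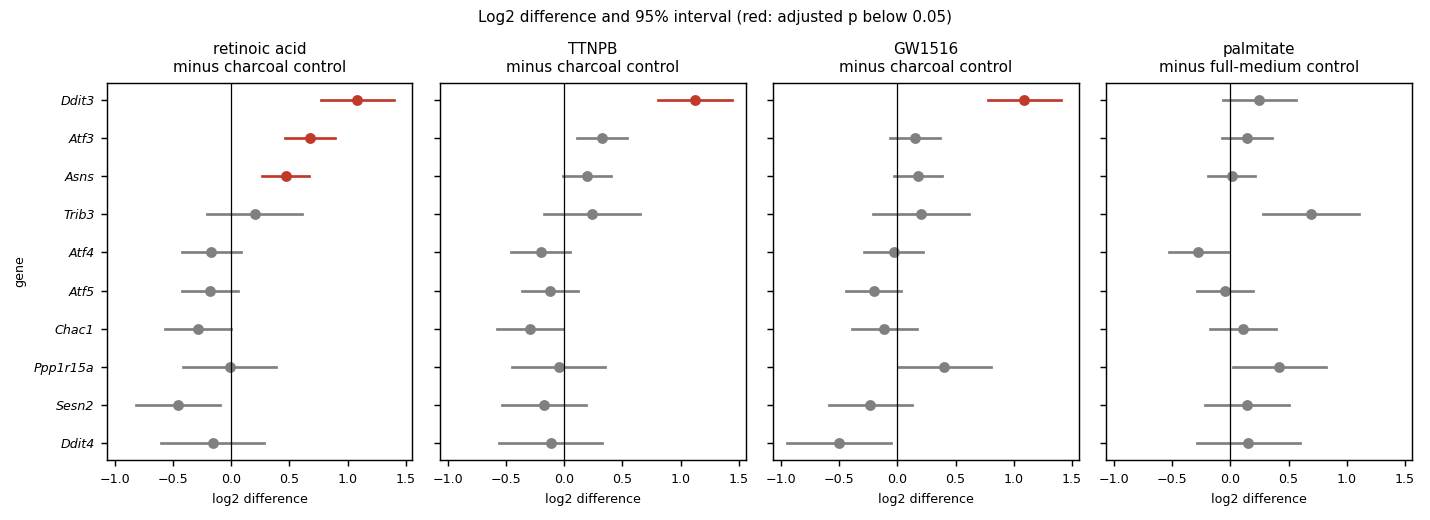
Log2 difference (horizontal axis) of each member (vertical axis) between each treatment and its same-serum control; points are limma estimates from 3 arrays a group and lines their 95% intervals, in red where the adjusted p was below 0.05. Ddit3 stood near 1.1 with all 3 ligands and at 0.25 with palmitate, Atf3 and Asns passed with retinoic acid, and Trib3 had its highest estimate, 0.69, with palmitate.

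Neither of the transcription factor genes at the head of the pathway passed in any comparison. Atf4 measured 5.46, 5.34 and 5.37 in the charcoal controls, 5.39, 5.03 and 5.25 with retinoic acid, 5.17, 5.20 and 5.20 with TTNPB and 5.28, 5.32 and 5.49 with GW1516. Its log2 change was -0.17 ± 0.12 with retinoic acid (interval -0.43 to 0.08), -0.20 ± 0.12 with TTNPB and -0.03 ± 0.12 with GW1516 (upper bounds 0.05 and 0.22). With palmitate Atf4 measured 4.08, 4.13 and 4.07, below all 3 controls at 4.21, 4.58 and 4.31 (log2 change -0.28 ± 0.12, adjusted p = 0.608). Atf5, whose mRNA is also translated more under stress, lay between 1.86 and 2.17 in the charcoal controls and between 1.64 and 1.95 on the 9 ligand arrays, with log2 changes of -0.18, -0.12 and -0.20 for retinoic acid, TTNPB and GW1516, none of which passed.

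Trib3 encodes a pseudokinase induced by ATF4 and CHOP. It measured 4.49, 4.63 and 4.76 in the full-medium controls and 5.59, 5.02 and 5.36 with palmitate, so that all 3 palmitate arrays were higher (log2 change 0.69 ± 0.20, 1.62-fold, unadjusted p = 0.00232). It did not pass over all genes (adjusted p = 0.154), although it did with array weights (adjusted p = 0.00439) and after quantile normalization within each serum (adjusted p = 0.0335). The same direction was seen for Ppp1r15a, with 1.98, 2.09 and 2.04 in the controls and 2.77, 2.30 and 2.29 with palmitate (log2 change 0.42 ± 0.19, adjusted p = 0.648), and for Ddit4, with 8.65, 8.63 and 8.62 against 8.69, 8.83 and 8.84 (0.15 ± 0.21, adjusted p = 1). Of all genes, 15.2% had such a separation of palmitate from control arrays in either direction, and 4 of the 10 members did, Atf4 being the one that lay lower.

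With the ligands, Trib3 measured 5.64, 4.83 and 5.73 in the charcoal controls, of which replicate 2 was low, and between 5.40 and 5.83 on the 9 ligand arrays. Its log2 change was 0.20 ± 0.20 with retinoic acid, 0.24 ± 0.20 with TTNPB and 0.20 ± 0.20 with GW1516, and none passed. Ppp1r15a, the regulatory subunit that returns eIF2 to its active form, measured 3.67, 3.54 and 3.82 in the controls, 3.92, 3.78 and 3.29 with retinoic acid, 3.50, 3.62 and 3.77 with TTNPB and 4.09, 3.73 and 4.43 with GW1516, where GW1516 replicate 3 was the highest array. The log2 change with GW1516 was 0.40 ± 0.19 (adjusted p = 0.317), and those with retinoic acid and TTNPB were -0.01 and -0.05.

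None of Chac1, Sesn2 and Ddit4 passed in any comparison with a control. Chac1, a glutathione-degrading enzyme known as a target of ATF4 and CHOP, measured 3.06, 3.11 and 3.05 in the charcoal controls, 2.84, 2.78 and 2.74 with retinoic acid, 2.84, 2.69 and 2.81 with TTNPB and 3.19, 2.84 and 2.85 with GW1516. All 6 retinoid arrays were below all controls (log2 change -0.28 ± 0.13 with retinoic acid, adjusted p = 0.296, and -0.29 ± 0.13 with TTNPB, adjusted p = 0.411). Its promoter holds the same core as that of Atf3, printed above, whose mRNA rose with retinoic acid.

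Sesn2 encodes a leucine sensor that holds back mTORC1. It measured 5.94, 6.13 and 6.00 in the controls, 5.59, 5.55 and 5.56 with retinoic acid, 5.64, 5.99 and 5.93 with TTNPB and 5.79, 6.20 and 5.39 with GW1516. The retinoic acid arrays lay close together below all controls (log2 change -0.46 ± 0.17, adjusted p = 0.157), and the change passed on the 6 arrays alone (adjusted p = 0.0137) and after quantile normalization of all arrays (0.0255) or within each serum (0.0475). Ddit4 (REDD1), another brake on mTORC1, measured 9.34, 9.31 and 9.27 in the controls and between 9.05 and 9.21 on the 6 retinoid arrays. With GW1516 it measured 9.22, 9.25 and 7.94, so that the change of -0.50 ± 0.21 (adjusted p = 0.253) came mostly from replicate 3, the array that stood apart. For Sesn2 and Chac1 in full medium the palmitate and control arrays overlapped, with changes of 0.14 ± 0.17 and 0.11 ± 0.13.

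Across the 12 charcoal arrays the members did not move as one group. As a description of these arrays, which share their controls, Pearson's r was 0.63 between Ddit3 and Atf3, 0.90 between Atf3 and Asns and -0.68 between Ddit3 and Chac1. In the 6 full-medium arrays the same pairs stood at 0.78, -0.37 and 0.75. The genes outside the 10 members with the pattern most like Ddit3 over the 12 charcoal arrays, of 10782 genes above background, were Arrdc4 (r = 0.983), Arnt (0.974), Cdkn1b (0.967), AW549877 (0.967) and Kdm7a (0.961). For Atf3 they were Pitpnc1 (0.975), Slc2a1 (0.974), Clstn1 (0.973), Atp6v1a (0.966) and Fzd5 (0.961). The former 5 genes changed by 0.57 to 1.03 with each of the 3 ligands. Each of the latter changed more with retinoic acid (0.41 to 1.59) than with TTNPB (0.17 to 0.77) or GW1516 (0.02 to 0.36). The largest change with retinoic acid was that of Fzd5, at 1.59, with 0.65 with TTNPB and 0.09 with GW1516. A choice of genes by likeness fixes this agreement, and nothing is read from it.

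The rest of the pathway was described by 7 lists of other genes, 108 of whose 118 entries were measured (Atf6 and Cebpb each stand in 2 lists). After retinoic acid 23 of the listed genes passed, 19 as higher and 4 as lower. After TTNPB 5 passed, 4 as higher and 1 as lower, after GW1516 12 passed, all as higher, and after palmitate 3 passed, 1 as higher and 2 as lower. With arrays centred on their medians the counts were 14, 2, 6 and 0, each call as higher. Over all genes 5.29%, 1.26%, 2.57% and 0.681% were called in these 4 comparisons, and 16.4%, 11.2%, 15.4% and 7.0% had an unadjusted p below 0.05. With dim genes left out, 1492, 454, 872 and 228 of the 12346 genes kept were called. The medians of the 7 lists ran from -0.02 to 0.25 with retinoic acid, from -0.08 to 0.11 with TTNPB, from -0.05 to 0.29 with GW1516 and from -0.09 to 0.06 with palmitate, against -0.03, -0.00, -0.01 and -0.00 for all genes.

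Of these calls, 28 were lost in at least 1 fit without an array. Over all fits of these 28 without an array, whether the call was lost or kept, the log2 changes stayed between 0.55 and 1.28 times the value with all arrays. The lowest ratio was that of Slc7a5 with GW1516, which changed by 0.18 without GW1516 replicate 3 against 0.34 with it and was still called. With each array of a comparison left out in turn, the retinoic acid count was 11 to 16, the TTNPB count 2 to 4 and the palmitate count 0 to 2. The GW1516 count was 5 without charcoal control replicate 1 or 2, 7 without charcoal control replicate 3, 18 without GW1516 replicate 3 and 1 on its 6 arrays alone, where all calls but that of Ero1a were lost. Centring the arrays ended 10 calls with retinoic acid, those of Cebpg, Creb1, Dele1, Dnajc3, Gpt2, Ppp1r15b, Psat1, Shmt1, Slc38a2 and Wars. It ended 3 with TTNPB (Map1lc3b, Slc1a4 and Slc38a2) and 6 with GW1516 (Aldh18a1, Atf7, Dele1, Eif4ebp1, Ern1 and Slc1a4). Fitting the arrays of the same serum ended the calls of Dnajc3, Psat1 and Shmt1 with retinoic acid, Slc38a2 with TTNPB and Ern1, Slc3a2 and Slc7a5 with GW1516. Quantile normalization of all arrays ended those of Aldh1l2 and Cebpg with retinoic acid and of Slc3a2 and Slc7a5 with GW1516. The calls kept in every setting tried were those of Slc1a4, Slc7a11, Slc3a2, Aldh18a1, Mthfd2, Ero1a, Eif4ebp1 and Hsp90b1 with retinoic acid, Hsp90b1 with TTNPB and Ero1a with GW1516.

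**Figure D3:**
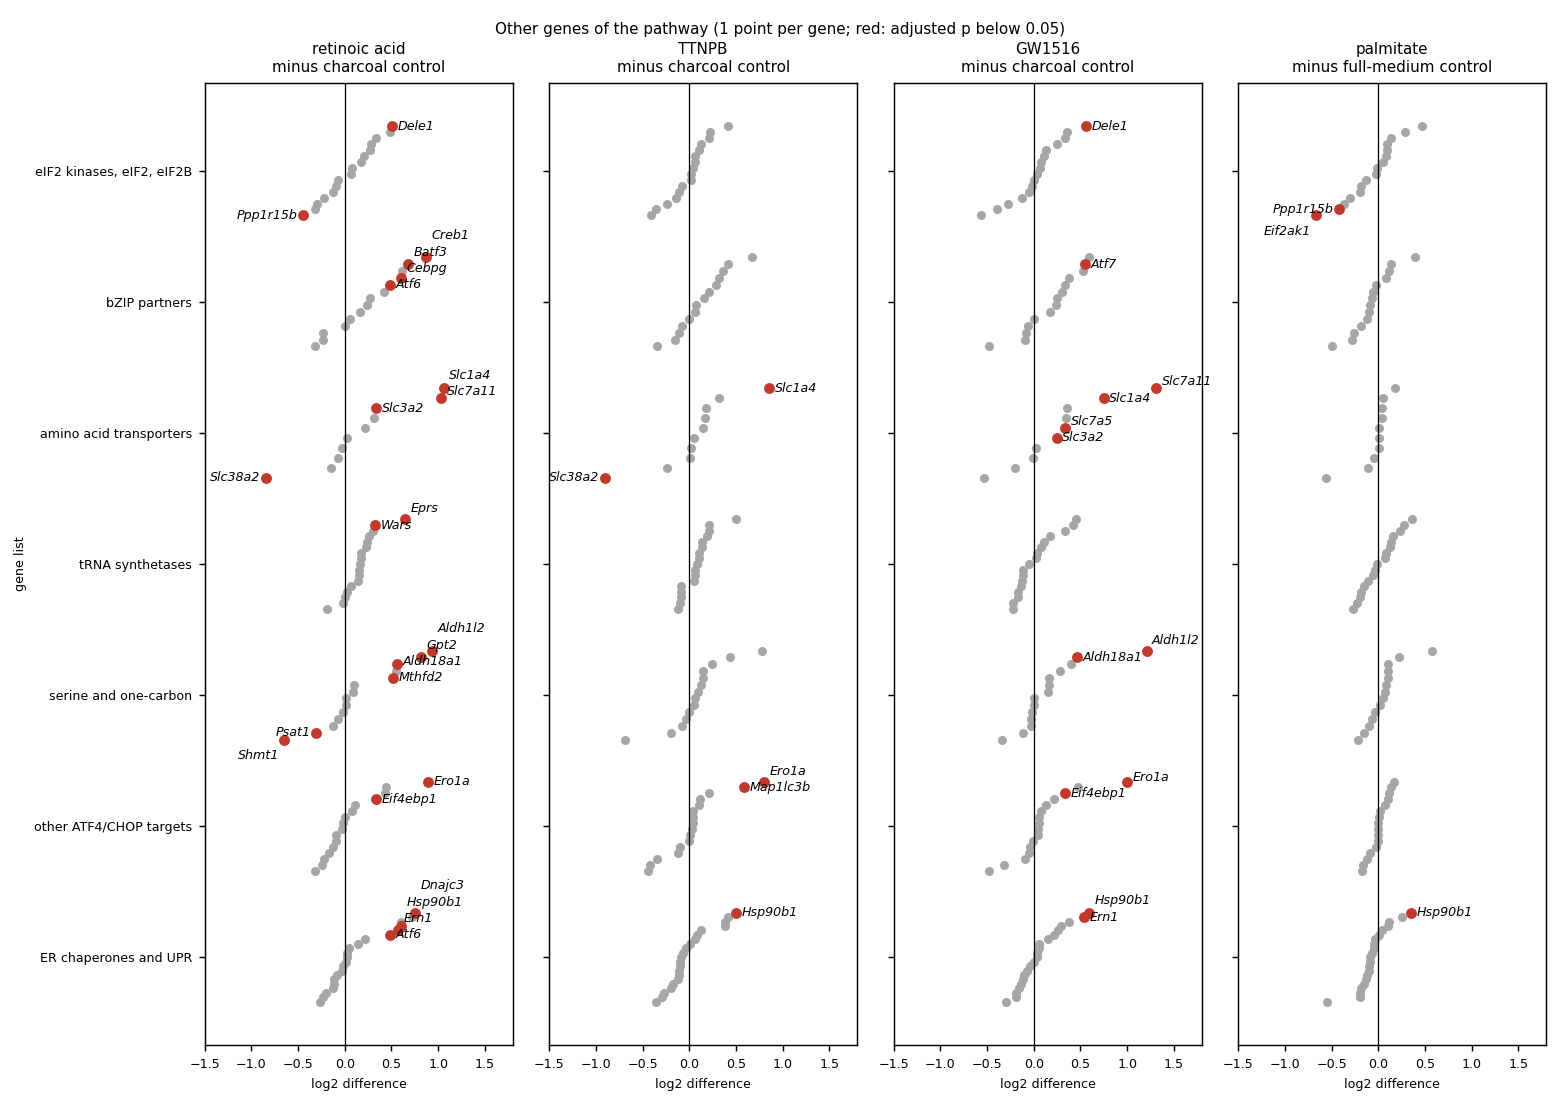
Log2 difference (horizontal axis) of each measured gene of the 7 pathway lists (vertical axis) between each treatment and its same-serum control; 1 point is 1 gene, named and red where the adjusted p was below 0.05. Called genes lie mostly on the right with retinoic acid and GW1516, while Slc38a2 lies on the left with both retinoids.

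Among 10 amino acid transporters, retinoic acid raised 3 and lowered 1, TTNPB raised 1 and lowered 1, GW1516 raised 4 and palmitate changed 0 (1 had an unadjusted p below 0.05, Slc38a2). Slc7a11, the cystine-glutamate exchanger, measured 3.59, 3.72 and 3.99 in the charcoal controls, 4.99, 4.82 and 4.59 with retinoic acid and 5.02, 4.73 and 5.49 with GW1516. All 6 of these ligand arrays were above the controls (log2 change 1.03 ± 0.20, adjusted p = 0.00382, and 1.31 ± 0.20, adjusted p = 0.00170). With the mean of the 2 probe sets of the gene the changes were 0.56 and 0.61 and still passed. The other probe set thus did not show a rise of the size given above. The call with GW1516 was lost on its 6 arrays alone (adjusted p = 0.197). With TTNPB the arrays were at 3.92, 3.90 and 4.46 and overlapped the controls (0.32 ± 0.20, adjusted p = 0.619).

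Slc1a4, a carrier of alanine, serine and cysteine, measured 4.97, 4.87 and 5.13 in the controls, 6.10, 6.03 and 6.01 with retinoic acid, 5.77, 5.99 and 5.78 with TTNPB and 5.91, 5.98 and 5.33 with GW1516. All 9 ligand arrays lay above the controls, GW1516 replicate 3 by the least. Its log2 change was 1.06 with retinoic acid (adjusted p = 0.000990), 0.85 with TTNPB (adjusted p = 0.0167) and 0.75 with GW1516 (adjusted p = 0.0253). The call with TTNPB was lost without any 1 of 5 arrays, all but charcoal control replicate 3, and that with GW1516 without charcoal control replicate 1 or 2 or GW1516 replicate 1 or 2. Slc3a2, the heavy chain that Slc7a11 and Slc7a5 need at the cell surface, rose by 0.34 with retinoic acid and 0.25 with GW1516, and Slc7a5 by 0.34 with GW1516; the calls of both with GW1516 were lost without any 1 of the charcoal controls. With array weights these GW1516 changes were 0.16 for Slc3a2 and 0.18 for Slc7a5.

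Slc38a2, a glutamine and alanine carrier that ATF4 is known to raise, went the other way. It measured 8.97, 8.95 and 9.04 in the charcoal controls, 8.15, 8.11 and 8.16 with retinoic acid and 8.00, 8.18 and 8.07 with TTNPB. The retinoid arrays were well below the controls and close to each other (log2 change -0.85 ± 0.21, adjusted p = 0.0215, and -0.90 ± 0.21, adjusted p = 0.0379). With GW1516 replicates 1 and 2 were at 8.88 and 8.78 and replicate 3 at 7.69, and this spread enters the shared variance. Both retinoid calls were lost without any 1 array of their comparison (adjusted p of 0.0559 to 0.0840 and of 0.0959 to 0.149), with changes of -0.87 to -0.82 and of -0.95 to -0.86 in those fits. With palmitate Slc38a2 measured 5.59, 5.35 and 5.80 against 6.10, 6.35 and 5.95 (-0.56 ± 0.21, adjusted p = 0.436).

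Enzymes of serine, one-carbon and amino acid synthesis moved in both directions after retinoic acid, with 4 of 14 higher and 2 lower. GW1516 raised 2 and TTNPB and palmitate changed 0 (4 and 2 with an unadjusted p below 0.05). Aldh1l2, a mitochondrial folate enzyme, measured 2.65, 2.13 and 2.79 in the charcoal controls, 3.56, 3.52 and 3.30 with retinoic acid, 3.30, 3.55 and 3.06 with TTNPB and 4.13, 3.54 and 3.52 with GW1516. Every ligand array was above the controls. The log2 change was 0.94 ± 0.20 with retinoic acid (adjusted p = 0.00731), 0.78 ± 0.20 with TTNPB (adjusted p = 0.0606) and 1.21 ± 0.20 with GW1516 (adjusted p = 0.00286). The retinoic acid call was lost without charcoal control replicate 2 (adjusted p = 0.0517) and after quantile normalization of all arrays (change 0.66, adjusted p = 0.166), and the GW1516 call on its 6 arrays alone (adjusted p = 0.215).

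Aldh18a1, which makes the precursor of proline, rose by 0.56 with retinoic acid (adjusted p = 0.000893) and by 0.47 with GW1516 (adjusted p = 0.00852, 0.0560 without charcoal control replicate 2). Gpt2, which makes alanine, rose by 0.82 with retinoic acid (adjusted p = 0.0326), and Mthfd2, another mitochondrial folate enzyme and outside the naming rule, by 0.52 (adjusted p = 0.00162). The lower ones were Shmt1, the cytosolic serine hydroxymethyltransferase, at -0.65 (adjusted p = 0.0465), and Psat1 of the serine pathway, also outside the rule, at -0.31 (adjusted p = 0.0307). The call of Gpt2 was lost without any 1 of the 6 arrays, with changes of 0.79 to 0.87. That of Shmt1 was lost without any 1 array but charcoal control replicate 2, and that of Psat1 without any 1 but retinoic acid replicate 2.

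Of 17 aminoacyl-tRNA synthetases, retinoic acid raised Eprs (log2 change 0.65, adjusted p = 0.0222) and Wars (0.32, adjusted p = 0.0239), and 15 of 17 had a positive estimate with a median of 0.17, where 42.4% of all genes had one. That share includes dim genes and depends on the scaling of the arrays. The median change with retinoic acid was -0.03 over all genes, 0.02 with dim genes left out and 0.04 with arrays centred on their medians. The share of positive estimates was not taken in those 2 settings. Positive estimates numbered 12 of 17 with TTNPB (median 0.08), 8 with GW1516 (-0.05) and 8 with palmitate (-0.01), against 48.8%, 47.6% and 49.3% of all genes. Without any 1 of the retinoic acid arrays the count was 0, and without any 1 of the charcoal controls it was 1. TTNPB, GW1516 and palmitate changed 0 of the 17 (2, 4 and 3 had an unadjusted p below 0.05). Wars was also higher with retinoic acid than with GW1516 (difference 0.44 ± 0.08, adjusted p = 0.0175), a call lost without any 1 of the retinoic acid arrays and with arrays centred (adjusted p = 0.109).

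Among 14 partners of ATF4 and other bZIP factors, retinoic acid raised Creb1 (0.87), Batf3 (0.67), Cebpg (0.60) and Atf6 (0.48), with adjusted p-values between 0.0125 and 0.0364. Cebpg encodes a C/EBP factor that pairs with ATF4. Without charcoal control replicate 2 or retinoic acid replicate 2 none of the 4 passed. GW1516 raised Atf7 by 0.55 (adjusted p = 0.0207), a call lost without charcoal control replicate 1 or 3 or GW1516 replicate 1, and TTNPB and palmitate changed 0 of the 14 (4 and 3 with an unadjusted p below 0.05).

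Of 21 ER chaperone genes and genes of the other arms of the unfolded protein response, retinoic acid raised 4, GW1516 2, TTNPB 1 and palmitate 1. Hsp90b1 (GRP94), an ER chaperone, was called in all 4 comparisons. It measured 8.34, 8.34 and 8.41 in the charcoal controls, 8.94, 8.96 and 9.00 with retinoic acid, 8.87, 8.90 and 8.84 with TTNPB and 9.01, 8.93 and 8.92 with GW1516. These 9 ligand arrays lay well clear of the controls (0.60, 0.50 and 0.59, adjusted p = 7.17e-05, 0.00144 and 0.000514). With palmitate it measured 6.32, 6.27 and 6.33 against 5.82, 5.98 and 6.06 (0.35 ± 0.07, adjusted p = 0.0269), a call lost without any 1 of the palmitate arrays or full-medium control replicate 1 or 2, on the 6 full-medium arrays alone (adjusted p = 0.277) and with arrays centred (0.390). The GW1516 call was lost on its 6 arrays alone (adjusted p = 0.177).

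Dnajc3 (P58IPK), which inhibits eIF2 kinases, rose by 0.75 with retinoic acid (adjusted p = 0.0172) and Ern1, the IRE1 sensor, by 0.57 (adjusted p = 0.0229) and by 0.54 with GW1516 (adjusted p = 0.0497). Dnajc3 was also higher with retinoic acid than with GW1516, by 0.89 ± 0.18 (adjusted p = 0.0355), a call lost without any 1 of the retinoic acid arrays and with arrays centred (adjusted p = 0.153); GW1516 replicate 3 was at 5.14 against 5.88 and 6.08 on the other two. With retinoic acid, Dnajc3 lost its call without charcoal control replicate 2 or any 1 retinoic acid array, and Ern1 without charcoal control replicate 1 or 2 or retinoic acid replicate 2 or 3. With GW1516, Ern1 lost it without charcoal control replicate 1 or 2 or GW1516 replicate 1 or 3. Hspa5 (BiP), the standard marker of ER stress, is given although outside the naming rule and chosen after its values were seen. It changed by -0.27 ± 0.13 with retinoic acid (adjusted p = 0.337), -0.35 ± 0.13 with TTNPB, -0.19 ± 0.13 with GW1516 and -0.09 ± 0.13 with palmitate, and none passed.

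Among 16 other targets of ATF4 and CHOP, Ero1a had the lowest p of the listed genes in each of the 3 ligand comparisons. ERO1α is an oxidase that helps form disulfide bonds in the ER and is known both as a CHOP and as a hypoxia target. Its mRNA measured 8.48, 8.49 and 8.63 in the charcoal controls, 9.42, 9.48 and 9.37 with retinoic acid, 9.38, 9.29 and 9.34 with TTNPB and 9.55, 9.55 and 9.49 with GW1516. All 9 ligand arrays were above the controls (log2 change 0.89, 0.80 and 0.99, SE 0.07, adjusted p = 4.04e-07, 4.23e-06 and 4.90e-07). With the mean of the gene's 2 probe sets the changes were 0.66, 0.57 and 0.76, and the TTNPB call was lost (adjusted p = 0.0767). With palmitate it measured 7.14, 7.02 and 6.95 against 7.18, 7.18 and 7.13 (-0.12 ± 0.07, adjusted p = 0.862).

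The palmitate effect on Ero1a was lower than each ligand effect, by differences of -1.01 against retinoic acid (adjusted p = 1.50e-05), -0.92 against TTNPB (adjusted p = 0.000261, 0.139 with the mean of the gene's probe sets) and -1.12 against GW1516 (adjusted p = 2.14e-05). These 3 contrasts share the full-medium arrays and the charcoal controls, and 2.56%, 0.568% and 1.26% of all genes were called in them. Eif4ebp1, a translational repressor, rose by 0.33 with retinoic acid (adjusted p = 0.00952) and by 0.33 with GW1516 (adjusted p = 0.0202), the latter lost without any 1 of the charcoal controls. Map1lc3b, which encodes the autophagy protein LC3B, rose by 0.58 with TTNPB (adjusted p = 0.0323), a call lost without any 1 array but charcoal control replicate 3. Palmitate changed 0 of these 16, with 1 at an unadjusted p below 0.05.

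**Figure D4:**
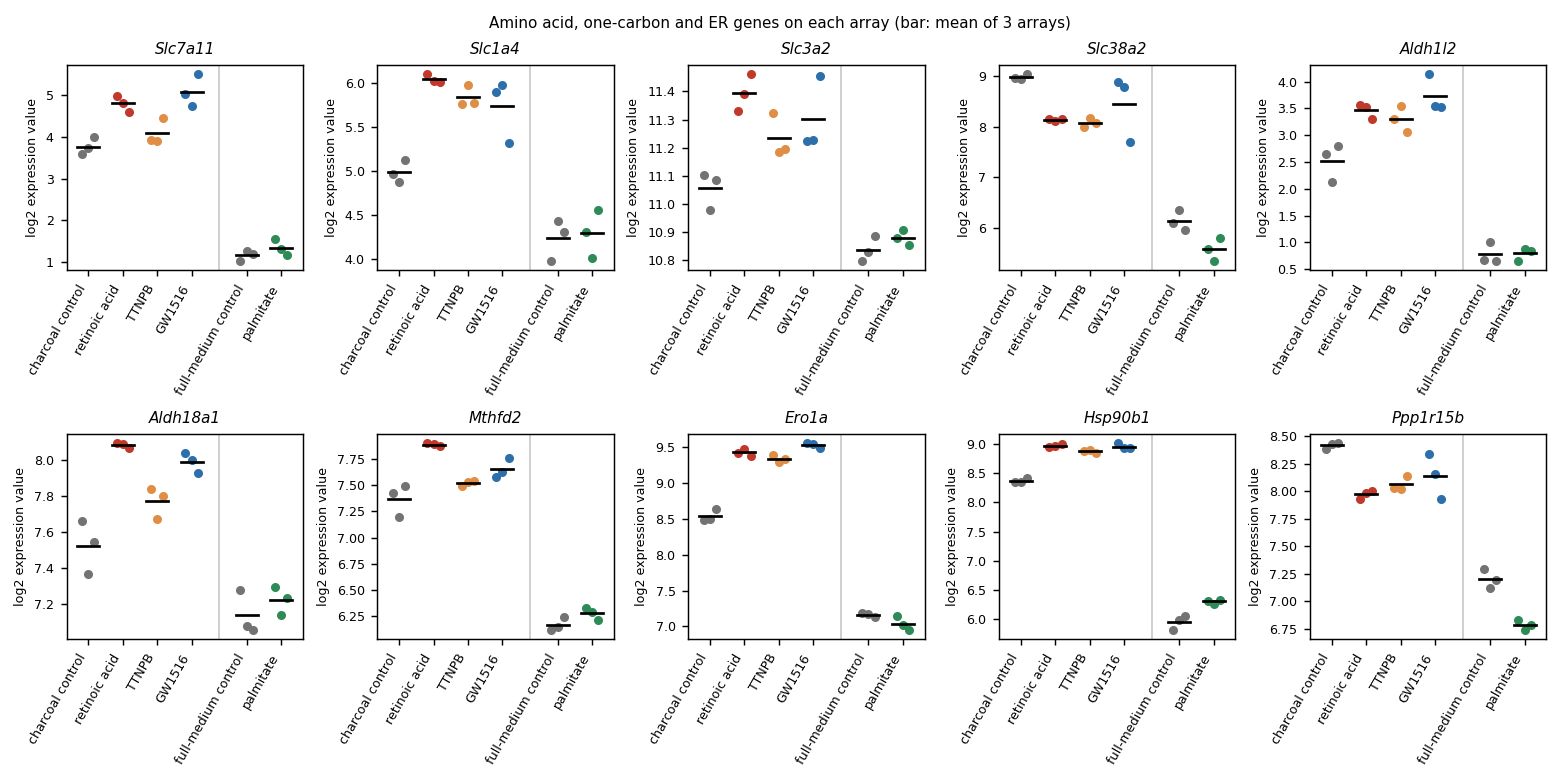
Log2 expression values (vertical axis) of 10 listed genes, chosen for display after their values were seen, on each of the 18 arrays by group (horizontal axis); each point is 1 array, each bar the mean of 3, and the grey line separates the 2 sera. Ero1a and Hsp90b1 show all ligand arrays above the charcoal controls, Slc38a2 shows the retinoid arrays near 8.1 against 9.0 in the controls, and GW1516 replicate 3 lies apart in Slc38a2, Slc1a4 and Slc3a2.

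Upstream, among 16 genes of the eIF2 kinases, eIF2, its exchange factor eIF2B and their regulators, retinoic acid raised Dele1, which carries mitochondrial stress signals to the kinase HRI, by 0.51 (adjusted p = 0.0336), and lowered Ppp1r15b, the constitutive partner of the eIF2 phosphatase. Dele1 also rose with GW1516, by 0.56 (adjusted p = 0.0332). The call of Dele1 with retinoic acid was lost without any 1 of the 6 arrays, and that with GW1516 without any 1 but GW1516 replicate 3. Ppp1r15b measured 8.38, 8.43 and 8.43 in the charcoal controls and 7.93, 7.98 and 8.00 with retinoic acid (-0.44 ± 0.09, adjusted p = 0.00591), a call lost with arrays centred on their medians (-0.37, adjusted p = 0.163). It was also lower with palmitate, at 6.83, 6.74 and 6.79 against 7.30, 7.12 and 7.19 (-0.42 ± 0.09, adjusted p = 0.0355), a call lost without any 1 of these 6 arrays, on the 6 arrays alone (adjusted p = 0.146), with arrays centred (0.445), with no trend in the variance (0.0516) and after quantile normalization of all arrays (0.0501).

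Palmitate further lowered Eif2ak1, the gene of HRI itself, from 3.36, 3.54 and 3.70 in the controls to 2.82, 2.85 and 2.95 (-0.66 ± 0.15, adjusted p = 0.0403). This call was lost without any 1 array but full-medium control replicate 1 (adjusted p from 0.0815 to 0.224), on the 6 full-medium arrays alone (0.162) and with arrays centred (0.248). It was also lost after quantile normalization of all arrays, where the change was -0.42 (adjusted p = 0.195), or within each serum (-0.56, adjusted p = 0.0547). The genes of PERK (Eif2ak3) and GCN2 (Eif2ak4), outside the naming rule and chosen after their values were seen, changed by 0.48 ± 0.17 and 0.27 ± 0.14 with retinoic acid and by -0.30 ± 0.17 and -0.19 ± 0.14 with palmitate, and none of these 4 changes passed. TTNPB changed 0 of the 16 genes, with 2 at an unadjusted p below 0.05.

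Direct comparisons between the ligands gave few listed genes. Between retinoic acid and TTNPB 0 of the members and 0 of the listed genes passed in the limma fit, where 0.153% of all genes were called and 2 of the 10 members, Atf3 and Asns, had an unadjusted p below 0.05, as did 7.27% of all genes. Between TTNPB and GW1516 the counts were also 0 and 0, with 0.0676% of all genes called and 1 member, Ppp1r15a, at an unadjusted p below 0.05 (10.5% of all genes). Between retinoic acid and GW1516, 1 member (Atf3) and 2 listed genes (Wars and Dnajc3) passed, each higher with retinoic acid. Of all genes 0.352% were called in that comparison, 0.284% as higher. Each of these calls was lost without any 1 retinoic acid array and with arrays centred. The palmitate effect was lower than the retinoic acid effect for 5 listed genes, Slc1a4, Cebpg, Atf6, Atf7 and Ero1a. In this contrast 2.56% of all genes were called, 2.07% as lower. Of the 5, Atf7 and Ero1a were called in all 20 other settings. For Atf7 the change was 0.42 ± 0.12 with retinoic acid (adjusted p = 0.0502) and -0.50 ± 0.12 with palmitate (adjusted p = 0.0730), and the difference of -0.92 ± 0.17 passed (adjusted p = 0.00656).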

How the data were processed

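The authors deposited log2 expression values per probe set (Affymetrix, 18 arrays, 41345 probe sets). Partek, without a version, is the tool given in the submitters' processing notes. The background correction, normalization and log base are not given in the sources used here. Values fit a log2 scale, and the full-medium arrays lie lower throughout (gene medians 0.55 to 0.60 against 1.19 to 1.49). Values were therefore not compared between sera. Only the palmitate effect, taken against its own control, was set against each ligand effect. Of the probe sets, 23521 had 1 gene symbol, 1814 several and 16010 none. A gene took the probe set with the highest mean, which left 22180 genes.

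limma 3.58.1 in R 4.3.3 fitted 6 group means (12 residual degrees of freedom, prior variance with a trend), with Benjamini-Hochberg adjustment over all genes and a threshold of 0.05. On simulated data of the retinoic acid comparison with 22180 genes it recovered 43% of log2 changes of 0.5 and 98% of changes of 1, with 9 false calls. The simulation had independent normal noise, 100 changed genes of each size and no outlying array. Recovery in the real data can differ. The number of arrays limits the precision.

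Named were all members and, per list and comparison with a control, up to 4 called genes with the largest change; genes outside this rule are marked. Members and lists were chosen with earlier results of these data known, so counts over them are descriptions. Old array symbols were matched by Entrez number or synonym; promoters came from RefSeq (GRCm38.p6). Other settings were fits on fewer arrays, a replicate block, no trend, quantile normalization, median centring, array weights, dim genes left out (12346 genes kept), mean probe sets and each array left out. Quantile normalization within each serum, and all alternatives for the lists, were added after the data were seen.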

Additional observations from a re-analysis of the deposited data

Results flagged for a closer look

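Direct tests found treatments that differed in their effect on the same gene. Among the members, Atf3 was higher with retinoic acid than with GW1516 by 0.53 (limma adjusted p = 0.0280), with all 3 retinoic acid arrays above all 3 GW1516 arrays, and the palmitate effect on Ddit3 differed from the retinoic acid effect by -0.83 (adjusted p = 0.0423). Both calls were lost without single arrays and with arrays centred, as given above.

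Among the listed genes, Wars and Dnajc3 were higher with retinoic acid than with GW1516, by 0.44 (adjusted p = 0.0175) and 0.89 (adjusted p = 0.0355). The palmitate effect differed from the retinoic acid effect for Slc1a4 by -1.01 (adjusted p = 0.0299), for Cebpg by -0.88 (adjusted p = 0.0473), for Atf6 by -0.67 (adjusted p = 0.0231), for Atf7 by -0.92 (adjusted p = 0.00656) and for Ero1a by -1.01 (adjusted p = 1.50e-05). Without single arrays Slc1a4 and Cebpg kept the call in 3 of 12 fits each and Atf6 in 4, while Atf7 and Ero1a kept it in 12 of 12. The calls of Slc1a4, Cebpg and Atf6 were also lost with arrays centred, and that of Cebpg after either quantile normalization.

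The palmitate effect differed from the TTNPB effect for Atf7 by -0.78 (adjusted p = 0.0445, kept in 1 of 12 fits without an array) and for Ero1a by -0.92 (adjusted p = 0.000261). Against GW1516 it differed for Atf7 by -1.04 (adjusted p = 0.00547), for Ero1a by -1.12 (adjusted p = 2.14e-05) and for Aldh1l2 by -1.19 (adjusted p = 0.0421, kept in 3 of 12). The Atf7 call against TTNPB and the Aldh1l2 call were also lost with arrays centred and after quantile normalization of all arrays. Palmitate was given at 10 µM in full medium and the ligands at 1 µM in charcoal-treated serum. The full-medium arrays also had lower values throughout. In these contrasts the serum, the dose, the scale of the arrays and the compound cannot be told apart. Single outlying arrays were not tested for within the groups of 3.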

How the results depend on the processing

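The count of 3 members called with retinoic acid was 3 in each fit without 1 array and 3 to 4 in the 10 other settings. No called change of a member or listed gene changed sign in any setting tried. With TTNPB 1 member was called, and 2 after quantile normalization of all arrays. With GW1516 it was 0 on the 6 arrays alone, 2 with array weights and 1 to 2 without single arrays (2 without GW1516 replicate 3). With palmitate the count of 0 became 1 with array weights and 1 after quantile normalization within each serum. For retinoic acid against GW1516 it went from 1 to 0 with arrays centred on their medians and to 0 to 1 without single arrays (0 without any 1 retinoic acid array). For the palmitate effect against the retinoic acid effect it was 3 after quantile normalization of all arrays, 0 with arrays centred, 4 with array weights, 2 with dim genes left out, 2 after quantile normalization within each serum (Atf3 and Asns, with Ddit3 lost) and 0 to 2 without single arrays. Against the TTNPB effect it went from 0 to 1 with quantile normalization of all arrays, array weights, dim genes left out and quantile normalization within each serum. Against the GW1516 effect it went from 0 to 1 with no trend in the variance, quantile normalization of all arrays, array weights and dim genes left out, and to 0 to 1 without single arrays (1 without GW1516 replicate 3). The causes were not tested.

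The replicate numbers of the labels showed no clear pairing of the arrays. Correlations of same-numbered arrays' deviations lay between -0.280 and 0.212 and were not all above 0.1 in any comparison. With 3 arrays a group these correlations are imprecise and cannot exclude a pairing. With a replicate block the count for retinoic acid against GW1516 was 0 (Atf3, adjusted p = 0.0533), and no other member count differed from the main one. Among the listed genes the block ended 3 calls with palmitate (Eif2ak1, Hsp90b1 and Ppp1r15b) and 1 each with retinoic acid (Dele1), TTNPB (Slc38a2) and GW1516 (Slc7a5). For the palmitate effect it ended the calls of Slc1a4 against retinoic acid, Atf7 against TTNPB and Aldh1l2 against GW1516.

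Over the whole table the called genes ranged from 583 to 2014 with retinoic acid (1174 in the main setting), 84 to 622 with TTNPB (279), 3 to 1122 with GW1516 (570) and 1 to 661 with palmitate (151). They ranged from 9 to 136 (34), 27 to 195 (78) and 4 to 66 (15) for retinoic acid against TTNPB, retinoic acid against GW1516 and TTNPB against GW1516, and from 274 to 1449 (568), 15 to 478 (126) and 63 to 849 (280) for the palmitate effect against those of retinoic acid, TTNPB and GW1516. Scaling moved the share of calls that were higher, from 72.2% to 52.2% after quantile normalization of all arrays, 88.0% after centring and 54.7% within each serum with retinoic acid, from 73.5% to 54.6%, 90.2% and 58.9% with GW1516, and from 21.2% to 35.0%, 17.6% and 33.3% with palmitate. In the same order it went from 70.6% to 43.9%, 89.5% and 51.4% for retinoic acid against TTNPB, from 80.8% to 63.8%, 79.3% and 66.4% for retinoic acid against GW1516, from 33.3% to 50.0%, 0% and 38.9% for TTNPB against GW1516, and from 19.2% to 41.6%, 8.4% and 41.5%, from 29.4% to 42.9%, 33.3% and 43.3%, and from 16.4% to 34.4%, 9.5% and 34.2% for the palmitate effect against those of retinoic acid, TTNPB and GW1516.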
